A study of Mus musculus with 4 samples.

Results

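The 38 genes described here lie at the distal end of the mouse X chromosome. They are the rows of the deposited table on the X with a start at or beyond 150 Mb (mm9) and at least 20 allele-assigned reads in each of 4 libraries. These are reads that cover a variant between the parental strains and so can be given to the maternal or the paternal X. The table lists 22686 genes, of which 952 are on the X and 91 start beyond 150 Mb. Of those 91 genes 51 had too few reads, and 2 that met both limits are not reported here. A paternal share was deposited for 37 of the 38 genes, and Tmsb4x, with 205 to 464 allele-assigned reads a library, had none. In all, 341 X-linked genes met the same limit of reads and had a share, and they are the background for the tests of the share.

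In female mammals most genes of 1 X chromosome are silenced, a state started by the noncoding RNA Xist, which coats that chromosome. SmcHD1 is a chromatin protein of the inactive X that takes part in keeping its genes silent. Genes that are still transcribed from the inactive X are called escape genes. The distal end of the mouse X adjoins the pseudoautosomal region. Many genes of this interval have their human counterparts in Xp22 on the short arm of the X, where several are described as escaping inactivation in human cells.

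The libraries came from female epiblast stem cells (EpiSCs), a pluripotent cell type, derived at stage E6.5 per the labels. They were Smchd1 MD1/MD1 XistdeltaA/+, Smchd1 +/+ XistdeltaA/+, Smchd1 MD1/MD1 Xist1lox/+ and Smchd1 +/+ Xist1lox/+, so that every library carried 1 mutant Xist allele. The labels give the strain as a cross of C57BL6/J with an F1 between JF1, a strain of another mouse subspecies, and C57BL6/J. Each combined genotype had 1 library, the labels do not say how many embryos or lines it stands for, and no difference below has a replicate check. MD1/MD1 was compared with +/+ at the same Xist allele, which gives the XistdeltaA/+ pair and the Xist1lox/+ pair.

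The libraries held 7301034 to 8008500 allele-assigned reads, and 11945 to 12995 of them fell on the 37 genes. Smchd1 itself was at 6.68 FPKM (a read level scaled for transcript length and library size) in MD1/MD1 and 27.0 in +/+ with XistdeltaA/+, and at 5.98 in MD1/MD1 and 20.9 in +/+ with Xist1lox/+. Xist was at 38.3 FPKM in MD1/MD1 and 12.1 in +/+ with XistdeltaA/+, and at 28.9 in MD1/MD1 and 10.5 in +/+ with Xist1lox/+, and 99.5% to 99.9% of its allele-assigned reads were paternal in every library. The part of the Xist level in the shares below was not tested. The 8 primed epiblast markers were above 0 in all libraries, with a summed level of 1162 to 1719 FPKM. The 7 naive pluripotency markers summed to 57.5 to 86.4 FPKM, mostly from Klf4 (24.2 to 34.8) and Klf2 (30.8 to 50.6). Zfp42, Tbx3, Esrrb and Nr0b1 were at 0.0341 to 1.15 FPKM in every library, and Dppa3 was listed at 0 throughout. Summed levels of other cell types' markers differed within the XistdeltaA/+ pair. The 8 fibroblast (feeder) markers summed to 120 FPKM in MD1/MD1 and 43.1 in +/+ with XistdeltaA/+, and to 57.9 and 56.6 with Xist1lox/+ in the same order of genotypes. The 8 macrophage markers summed to 925 FPKM in MD1/MD1 and 22.6 in +/+ with XistdeltaA/+, where C1qa, C1qb and Tyrobp were listed at 0 in +/+. With Xist1lox/+ the macrophage sums were 297 FPKM in MD1/MD1 and 327 in +/+. The 5 trophoblast markers summed to 12.1 FPKM in MD1/MD1 and 5.97 in +/+ with XistdeltaA/+, and to 1.78 in MD1/MD1 and 5.26 in +/+ with Xist1lox/+. With XistdeltaA/+ Hand1 (5.19 in MD1/MD1 and 0.372 in +/+) and Krt7 (5.34 and 2.55) made up the rise. Tfap2c was lower in MD1/MD1 in that pair (1.51 and 3.02), and Elf5 and Cdx2 were at most 0.0278 FPKM in any library. The 5 primitive endoderm markers summed to 6.23 to 8.60 FPKM.

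The results turn on a short stretch in which Zrsr2 and Siah1b, with high paternal shares in MD1/MD1, lie on either side of Car5b. Car5b had no paternal read, on only 23 to 88 reads a library. The results turn also on Prps2, which had almost none at high read counts. The promoter windows of these genes are shown for this contrast. Each runs from 250 bases before to 50 bases after the annotated start, 5′ to 3′ on the gene's own strand. The sequences are RefSeq's for GRCm38.p6, another build than the mm9 of the table, so that their positions cannot be set against the gene positions given below. All are on the minus strand, at chrX:164076444-164076743 and chrX:164076086-164076385 for the pair of annotated Siah1b starts, chrX:163958617-163958916 for Zrsr2, chrX:164027961-164028260 for Car5b and chrX:167382700-167382999 for Prps2. Capitals mark each CG dinucleotide, the site of DNA methylation in mammals.
Siah1b, upstream start: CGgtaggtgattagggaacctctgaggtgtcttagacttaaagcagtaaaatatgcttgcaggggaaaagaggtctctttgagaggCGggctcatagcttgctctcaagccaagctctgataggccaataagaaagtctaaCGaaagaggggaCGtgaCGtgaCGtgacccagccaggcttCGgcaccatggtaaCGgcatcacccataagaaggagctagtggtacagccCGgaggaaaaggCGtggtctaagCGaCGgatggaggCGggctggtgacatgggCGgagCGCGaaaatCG
Siah1b, downstream start: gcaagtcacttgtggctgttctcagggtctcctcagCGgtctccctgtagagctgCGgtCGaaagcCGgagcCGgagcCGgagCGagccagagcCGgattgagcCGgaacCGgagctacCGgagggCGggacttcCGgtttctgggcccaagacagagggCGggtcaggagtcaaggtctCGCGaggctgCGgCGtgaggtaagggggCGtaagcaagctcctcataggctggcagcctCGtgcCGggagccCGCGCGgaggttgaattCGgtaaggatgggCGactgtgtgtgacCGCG
Zrsr2: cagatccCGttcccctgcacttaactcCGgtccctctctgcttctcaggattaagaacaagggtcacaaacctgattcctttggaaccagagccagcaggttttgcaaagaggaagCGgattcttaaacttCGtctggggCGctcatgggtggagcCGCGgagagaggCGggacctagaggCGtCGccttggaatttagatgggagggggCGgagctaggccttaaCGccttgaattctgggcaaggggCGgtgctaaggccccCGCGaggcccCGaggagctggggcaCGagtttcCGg
Car5b: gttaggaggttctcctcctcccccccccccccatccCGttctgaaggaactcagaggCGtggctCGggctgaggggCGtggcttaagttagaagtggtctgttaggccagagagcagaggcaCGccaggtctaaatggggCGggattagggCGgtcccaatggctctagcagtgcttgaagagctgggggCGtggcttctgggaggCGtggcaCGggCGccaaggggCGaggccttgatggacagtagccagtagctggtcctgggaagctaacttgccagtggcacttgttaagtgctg
Prps2: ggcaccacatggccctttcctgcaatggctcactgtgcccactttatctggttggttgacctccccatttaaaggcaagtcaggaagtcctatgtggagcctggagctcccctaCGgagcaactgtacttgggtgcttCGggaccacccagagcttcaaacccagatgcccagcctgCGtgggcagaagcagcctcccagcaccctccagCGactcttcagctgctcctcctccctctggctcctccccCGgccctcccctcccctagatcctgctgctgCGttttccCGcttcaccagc
The letters CG, which read the same on both strands, occurred 17 and 28 times in the Siah1b windows, 18 times in Zrsr2, 12 times in Car5b and 7 times in Prps2. Whether the count goes with the share over the distal genes was not tested. Rab9, with a high MD1/MD1 share, had 9 and the called gene Acot9 had 10, while Trappc2 and Gpm6b, with no paternal read, had 35 and 20. In the MD1/MD1 libraries 0 reads allow up to 8.82% and 6.12% for Trappc2, and 2.38% and 4.29% for Gpm6b. Windows were found for 34 of the 38 genes, 43 windows in all, and 3 genes were matched through an older symbol. Of these 43 windows 26 held at least 15 CG, and the median was 18. Over the 32851 mouse windows supplied by RefSeq 34.6% held at least 15 CG, 94.6% held at least 1 and the median was 7. That set was not limited by reads as the distal genes were, and the part of this limit in the counts was not tested. DNA methylation was not measured in these libraries.

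The paternal X contributed more reads to the distal genes in both MD1/MD1 libraries than in their +/+ partners. With XistdeltaA/+ the pooled paternal share was 4.09% in MD1/MD1 (501 of 12250 reads, 95% Clopper-Pearson interval 3.75 to 4.46%), against 0.339% in +/+ (44 of 12995, 0.246 to 0.454%). With Xist1lox/+ it was 4.48% in MD1/MD1 (550 of 12290, 4.12 to 4.86%), against 0.477% in +/+ (57 of 11945, 0.362 to 0.618%). The differences were 3.75 and 4.0 percentage points. The intervals cover counting error only and leave out differences between libraries of the same genotype. They take reads as independent, which reads from polymerase-amplified libraries are not, so they can be too narrow even for counting error. An exact permutation test of 2 against 2 libraries (two-sided) cannot go below p = 0.333, which is the value these shares gave. The median gene was at 2.91% and 2.65% in the MD1/MD1 libraries, and at 0% in both +/+ libraries. Without Siah1b and Zrsr2 the pooled share of the other 35 genes was 2.87% in MD1/MD1 and 0.357% in +/+ with XistdeltaA/+, and 3.51% in MD1/MD1 and 0.507% in +/+ with Xist1lox/+.

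Autosomal stretches of 10 Mb in which the median gene was under 5% paternal, taken as stretches with maternal-type alleles alone, served as a background. They were picked by their own low shares, library by library. Their pooled share was 2.10% in MD1/MD1 and 0.866% in +/+ with XistdeltaA/+, and 2.16% in MD1/MD1 and 0.688% in +/+ with Xist1lox/+, so that it too was higher in both MD1/MD1 libraries. In them the median gene was at 0.0860% in MD1/MD1 and 0% in +/+ with XistdeltaA/+, and at 0% in both Xist1lox/+ libraries. The upper quartile of genes was at 1.05% in MD1/MD1 and 0.121% in +/+ with XistdeltaA/+, and at 0.217% in MD1/MD1 and 0.234% in +/+ with Xist1lox/+. Shares of about 2% or less in MD1/MD1, such as the 1.80% of Rbbp7 with Xist1lox/+, are not above this pooled background. Set against single background genes, the 1.80% of Rbbp7 was above their upper quartile of 0.217% in that library. The MD1/MD1 XistdeltaA/+ library was also the 1 with the highest macrophage, fibroblast and trophoblast sums, the last mostly from Hand1 and Krt7. The part of other cell types in its paternal reads was not tested.

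The pooled share of the distal genes was under that of the rest of the X in every library, as a description without a test. Over the 301 genes before 150 Mb without Xist the pooled share was 9.77% in MD1/MD1 and 2.79% in +/+ with XistdeltaA/+, and 9.94% in MD1/MD1 and 3.62% in +/+ with Xist1lox/+. These genes include escape genes with many reads, such as Ddx3x, which weigh more in a pooled share. Their median gene was at 3.73% in MD1/MD1 and 0.0748% in +/+ with XistdeltaA/+. With Xist1lox/+ it was at 3.67% in MD1/MD1 and 0.286% in +/+. The distal medians were 2.91% and 2.65% in MD1/MD1 and 0% in +/+. By median gene the order was thus the same, with a smaller gap. In the neighbouring stretch from 130 to 150 Mb, with 75 genes, it was 6.39% in MD1/MD1 and 2.44% in +/+, then 6.18% in MD1/MD1 and 2.51% in +/+. The differences within pairs there were 3.95 and 3.67 points of pooled share, against 3.75 and 4.0 for the distal genes. With equal weight for each gene the mean differences were 2.59 and 2.13 points from 130 to 150 Mb and 3.42 and 4.11 points in the distal genes. The order of both stretches thus depended on the weighting with XistdeltaA/+. With Xist1lox/+ the distal genes had the larger difference by either weighting. No distal gene reached 10% in a +/+ library. Of the 37 genes 19 had no paternal read in either +/+ library, a state found in 35.2% of the 341 X-linked genes compared.

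**Figure D1:**
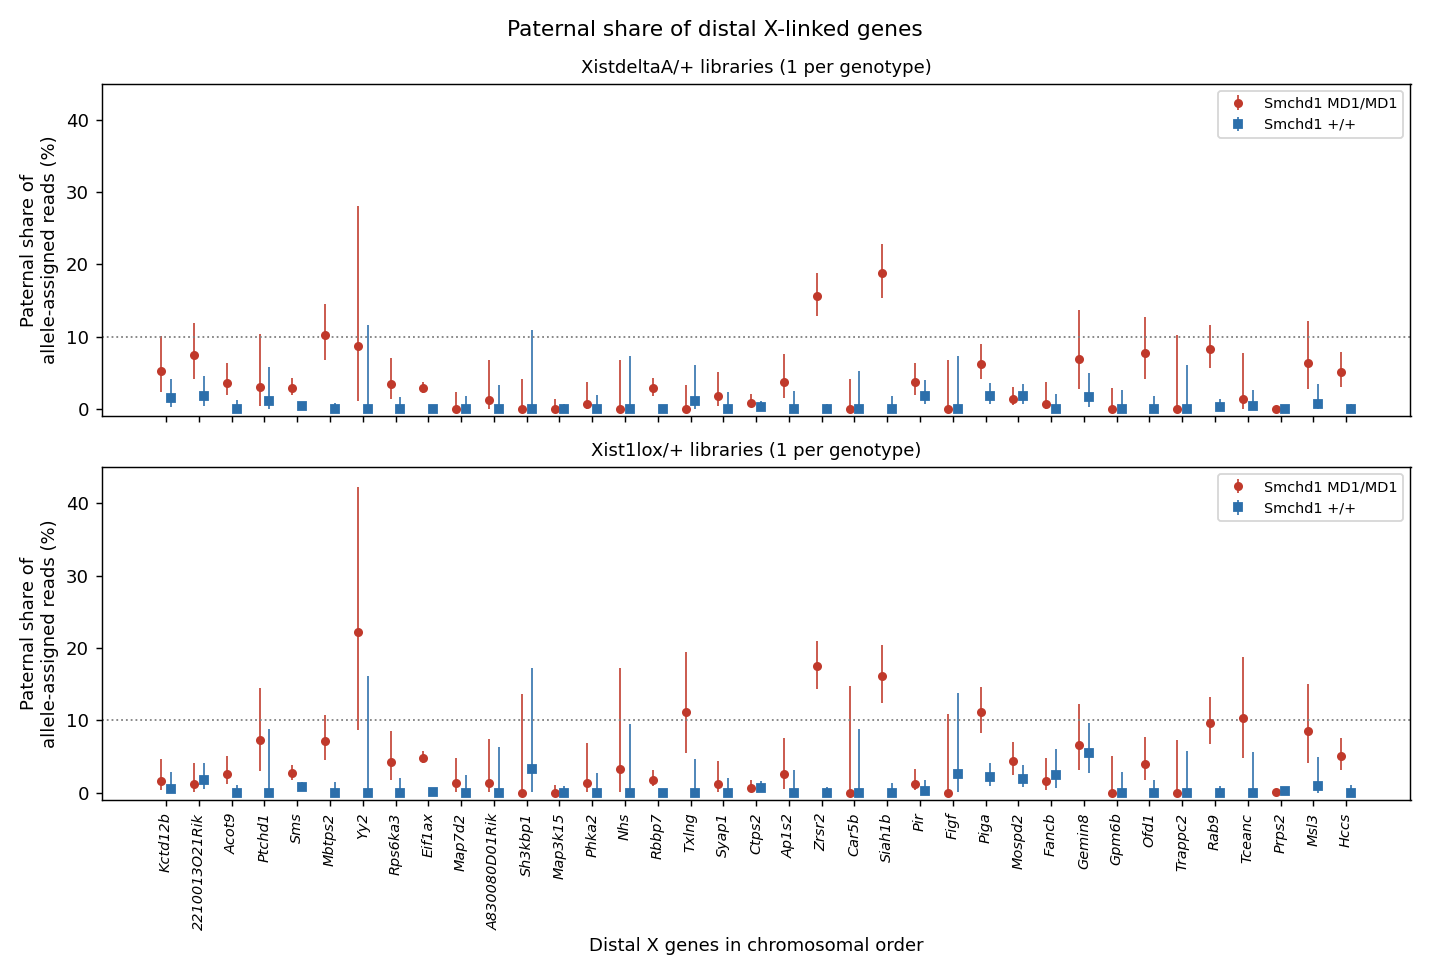
Paternal share of allele-assigned reads (%, vertical axis) of the 37 distal genes in chromosomal order, MD1/MD1 in red circles and +/+ in blue squares, with XistdeltaA/+ above and Xist1lox/+ below. Points are single libraries, bars are 95% Clopper-Pearson intervals and the dotted line is at 10%. Zrsr2 and Siah1b stand above the line in both MD1/MD1 libraries, and every +/+ point is under it.

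Paternal and maternal reads were compared gene by gene within each pair with Fisher's exact test (two-sided), adjusted by Benjamini-Hochberg over all 341 X-linked genes. The test compares those libraries and not the conditions. It also takes reads as independent, so its p-values can be too low. At an adjusted p under 0.05, 15 distal genes had a higher paternal share in MD1/MD1 in the XistdeltaA/+ pair and 15 in the Xist1lox/+ pair, where 46.0% and 41.1% of the X-linked genes did so. No distal gene was lower in either pair, beside 3.52% and 4.69% of the X-linked genes. In both pairs 13 of 37 genes (35.1%) were higher, beside 35.8% of the X-linked genes, and 0 were lower, beside 2.05%. The share of distal genes called was thus near that of the whole X. The called genes were among those with more reads. Of 25 genes with at least 100 reads in every library 13 were called in both pairs, where 46.2% of the 238 X-linked genes at that depth were. Of 12 distal genes with fewer reads in some library 0 were called in both pairs, where 11.7% of 103 X-linked genes were. The threshold of 10% gave a different count, since 2 distal genes (5.41%) were at 10% or more in both MD1/MD1 and neither +/+ library, beside 14.4% of the X-linked genes. Over the 37 genes, which share their libraries, the differences of 1 pair went with those of the other at a Spearman correlation of 0.555 and a Pearson correlation of 0.694, as a description. The Spearman correlation over the rest of the X was 0.759.

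Siah1b, an E3 ubiquitin ligase that marks proteins for degradation (160508635 to 160513981, minus strand), had the largest mean difference. It had 86 paternal of 456 reads in MD1/MD1 XistdeltaA/+, against 0 of 201 in +/+, and 55 of 342 in MD1/MD1 Xist1lox/+, against 0 of 262 in +/+. The shares in MD1/MD1 were 18.9% (15.4 to 22.8%) and 16.1% (12.4 to 20.4%), while 0 reads allow up to 1.49% and 1.15% in the +/+ libraries. The adjusted p from Fisher's exact test was 1.81e-14 and 3.26e-14. Siah1b has a close relative on another chromosome, Siah1a, so the counting of its reads is uncertain. The same holds for any distal gene with similar copies elsewhere in the genome, such as Eif1ax, Rbbp7 and Tmsb4x. The other genes of the ubiquitin list, Ubqln2 and Huwe1, start before 150 Mb.

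Genes for RNA processing and translation were Zrsr2, Eif1ax and Gemin8, and 2 of the 3 rose in both pairs. Over all X-linked genes compared 35.8% did so, and neither this list nor the lists by role below were tested against that share. Zrsr2 encodes a splicing factor that recognises 3′ splice sites of minor introns (160373375 to 160396598, minus strand). It had 94 paternal of 600 reads in MD1/MD1 XistdeltaA/+, against 0 of 482 in +/+, and 94 of 537 in MD1/MD1 Xist1lox/+, against 0 of 432 in +/+. Its MD1/MD1 shares, 15.7% and 17.5%, lay far above the 0.622% and 0.694% that 0 reads allow in +/+ (Fisher's exact test, adjusted p = 4.31e-25 and 2.34e-25). Zrsr2 and Siah1b, 2 of 37, were at 15% or more in both MD1/MD1 libraries with no paternal read in +/+, as were 2.35% of the X-linked genes, a combination picked after their values were seen. They held 17.9% and 13.4% of all paternal reads of the distal genes in the MD1/MD1 libraries. Eif1ax, the translation initiation factor eIF1A (155810127 to 155823631, plus strand), had the most reads of all and another 17.5% of the paternal ones. Its paternal reads numbered 60 of 2063 in MD1/MD1 and 1 of 1980 in +/+ with XistdeltaA/+, and 124 of 2551 in MD1/MD1 and 1 of 2290 in +/+ with Xist1lox/+. The shares of 2.91% and 4.86% in MD1/MD1 were small but differed from 0.0505% and 0.0437% in +/+ (Fisher's exact test, adjusted p = 5.75e-16 and 1.12e-32). Gemin8, a part of the complex that assembles spliceosomal particles, had shares of 6.93% in MD1/MD1 and 1.72% in +/+ with XistdeltaA/+, and 6.67% and 5.47% with Xist1lox/+. It passed in neither pair.

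Of the genes for membrane traffic, Rab9 and Mbtps2 rose in both pairs and Ap1s2, Txlng, Syap1 and Trappc2 did not, beside 35.8% of the X-linked genes that rose. Rab9, a small GTPase that returns receptors from late endosomes to the Golgi (162895184 to 162917799, minus strand), had 29 paternal of 350 reads in MD1/MD1 and 1 of 415 in +/+ with XistdeltaA/+. With Xist1lox/+ it had 34 of 351 in MD1/MD1 and 0 of 371 in +/+. Its MD1/MD1 shares of 8.29% and 9.69% were the third highest mean among the called genes. Mbtps2 encodes the site-2 protease that releases sterol-sensing transcription factors in the Golgi (153985754 to 154036647, minus strand). It had 27 of 264 paternal reads in MD1/MD1 and 0 of 423 in +/+ with XistdeltaA/+, and 22 of 305 in MD1/MD1 and 0 of 248 in +/+ with Xist1lox/+. Yy2, a zinc finger gene related to YY1, lies wholly inside Mbtps2 on the same strand, so reads of these 2 genes cannot be fully told apart. Yy2 had 2 of 23 paternal reads in MD1/MD1 and 0 of 30 in +/+ with XistdeltaA/+, and 6 of 27 in MD1/MD1 and 0 of 21 in +/+ with Xist1lox/+. Its share of 22.2% in MD1/MD1 Xist1lox/+ was the highest single value of any distal gene, with an interval of 8.62 to 42.3%, and Fisher's exact test gave adjusted p = 0.297 and 0.0616.

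Ap1s2, a subunit of the AP-1 clathrin adaptor, passed in the XistdeltaA/+ pair alone, with 7 of 185 paternal reads in MD1/MD1 and 0 of 144 in +/+, against 3 of 113 in MD1/MD1 and 0 of 118 in +/+ with Xist1lox/+. Txlng, which encodes the syntaxin-binding protein gamma-taxilin, passed in the Xist1lox/+ pair alone. Txlng had 0 of 107 paternal reads in MD1/MD1 and 1 of 89 in +/+ with XistdeltaA/+, and 10 of 90 in MD1/MD1 and 0 of 77 in +/+ with Xist1lox/+. Its share in MD1/MD1 was thus 0% with XistdeltaA/+ and 11.1% with Xist1lox/+. Txlng and Rbbp7 overlap by 174 bases on opposite strands. Syap1 had shares of 1.78% and 1.22% in MD1/MD1 and no paternal read in +/+.

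Both measured chromatin genes rose in both pairs, where 35.8% of the X-linked genes did. Rbbp7, a histone-binding subunit of the NuRD and Polycomb complexes (159198304 to 159217022, plus strand), had 21 paternal of 736 reads in MD1/MD1 and 0 of 752 in +/+ with XistdeltaA/+. With Xist1lox/+ it had 11 of 612 in MD1/MD1 and 0 of 701 in +/+. Its shares of 2.85% and 1.80% were the lowest of the called genes in each MD1/MD1 library. Msl3, a subunit of an acetyltransferase complex for histone H4 (165091031 to 165111834, minus strand), had shares of 6.40% in MD1/MD1 and 0.641% in +/+ with XistdeltaA/+, on 125 and 156 reads. With Xist1lox/+ the shares of Msl3 were 8.47% in MD1/MD1 and 0.901% in +/+, on 118 and 111 reads. The counts behind them were 8, 1, 10 and 1 paternal reads, and Msl3 had the highest adjusted p of the 13 genes, 0.0256 and 0.0254 by Fisher's exact test. Tceanc, which resembles a transcription elongation factor, had 1 of 70 paternal reads in MD1/MD1 and 1 of 208 in +/+ with XistdeltaA/+. With Xist1lox/+ Tceanc had 9 of 87 in MD1/MD1 and 0 of 63 in +/+, and it passed in this pair alone (Fisher's exact test, adjusted p = 0.0258).

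Metabolic genes were split between genes with a paternal share in MD1/MD1 and genes with almost none. Of the 6 on the list Piga, Hccs and Sms rose in both pairs, beside 35.8% of the X-linked genes. Piga, which acts in the first step of GPI anchor synthesis (160857719 to 160871847, plus strand), was already paternal in part in +/+. It had 28 of 445 paternal reads in MD1/MD1 and 7 of 400 in +/+ with XistdeltaA/+, and 44 of 395 in MD1/MD1 and 9 of 417 in +/+ with Xist1lox/+. The shares of Piga were 6.29% in MD1/MD1 and 1.75% in +/+, then 11.1% in MD1/MD1 and 2.16% in +/+. Hccs, which joins haem to cytochrome c, had 5.14% and 5.02% in the MD1/MD1 libraries and no paternal read of 504 and 363 in +/+. Sms, spermine synthase, had 26 of 880 paternal reads in MD1/MD1 and 4 of 1070 in +/+ with XistdeltaA/+, and 27 of 1005 in MD1/MD1 and 7 of 940 in +/+ with Xist1lox/+. Acot9, a mitochondrial acyl-CoA thioesterase outside that list, rose to 3.66% and 2.63% in MD1/MD1, against 0 paternal reads of 292 and 361 in +/+.

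Prps2, which makes the phosphoribosyl pyrophosphate used for nucleotides (163784265 to 163820631, minus strand), had 0 of 1658 paternal reads in MD1/MD1 and 1 of 1552 in +/+ with XistdeltaA/+. With Xist1lox/+ it had 2 of 1614 in MD1/MD1 and 4 of 1327 in +/+. Only Eif1ax had more reads, and the upper 95% Clopper-Pearson bounds for Prps2 in the MD1/MD1 libraries were 0.222% and 0.447%. A difference of the size seen in Rbbp7 lies outside these bounds. Ctps2, a CTP synthase, had 0.906% and 0.679% in the MD1/MD1 libraries and 0.304% and 0.625% in the +/+ libraries, on 552 to 657 reads. Car5b, a mitochondrial carbonic anhydrase and a known escape gene in some mouse cells, had no paternal read in any library. Its reads numbered 88 in MD1/MD1 and 68 in +/+ with XistdeltaA/+, and 23 in MD1/MD1 and 40 in +/+ with Xist1lox/+. By the limit of 3 reads, 0 reads thus allow up to 3.41%, 4.41%, 13.0% and 7.5%. The upper Clopper-Pearson bounds, as given for Prps2, were 4.11%, 5.28%, 14.8% and 8.81% in the same order.

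Of 4 measured signalling genes only Rps6ka3 rose in both pairs, beside 35.8% of the X-linked genes. Rps6ka3, the growth factor-activated kinase RSK2, had 7 of 200 paternal reads in MD1/MD1 and 0 of 213 in +/+ with XistdeltaA/+, and 7 of 164 in MD1/MD1 and 0 of 184 in +/+ with Xist1lox/+. Map3k15, a kinase at the head of stress-activated cascades, had no paternal read in any library. Its reads numbered 269 in MD1/MD1 and 542 in +/+ with XistdeltaA/+, and 323 in MD1/MD1 and 371 in +/+ with Xist1lox/+, so that 0 reads allow up to 1.12% and 0.929% in the MD1/MD1 libraries. Phka2, a regulatory subunit of liver phosphorylase kinase, had 1 paternal read in each MD1/MD1 library, of 146 and 78, and none in +/+. Sh3kbp1, an adaptor of receptor endocytosis, had 0 of 86 paternal reads in MD1/MD1 and 0 of 32 in +/+ with XistdeltaA/+, and 0 of 25 in MD1/MD1 and 1 of 30 in +/+ with Xist1lox/+. Ofd1, a protein of centrioles and cilia outside these lists, rose in both pairs, with 13 of 169 paternal reads in MD1/MD1 and 0 of 204 in +/+ with XistdeltaA/+. With Xist1lox/+ Ofd1 had 8 of 201 in MD1/MD1 and 0 of 216 in +/+.

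No paternal read was found in any library for 4 genes, namely Map3k15, Car5b, Gpm6b and Trappc2, as had 4.11% of the X-linked genes. Gpm6b, a membrane glycoprotein of the proteolipid family, had 70 to 138 reads a library, and Trappc2, a subunit of the TRAPP tethering complex, 34 to 62. 2210013O21Rik, called Nbdy in RefSeq, passed in the XistdeltaA/+ pair alone, with 15 of 202 paternal reads in MD1/MD1 and 4 of 224 in +/+, and had 2 of 174 in MD1/MD1 and 5 of 284 in +/+ with Xist1lox/+. The remaining 9 genes passed in neither pair. They were Kctd12b, Ptchd1, Map7d2, A830080D01Rik (Bclaf3 in RefSeq), Nhs, Pir, Figf (Vegfd in RefSeq, a growth factor for lymphatic vessels), Mospd2 and Fancb. Their MD1/MD1 shares lay between 0% and 7.29%, the highest in Ptchd1 with Xist1lox/+ on 96 reads. Mospd2, a tether of membrane contact sites, had a paternal share in every library, 1.43% in MD1/MD1 and 1.75% in +/+ with XistdeltaA/+, and 4.35% in MD1/MD1 and 1.89% in +/+ with Xist1lox/+.

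**Figure D2:**
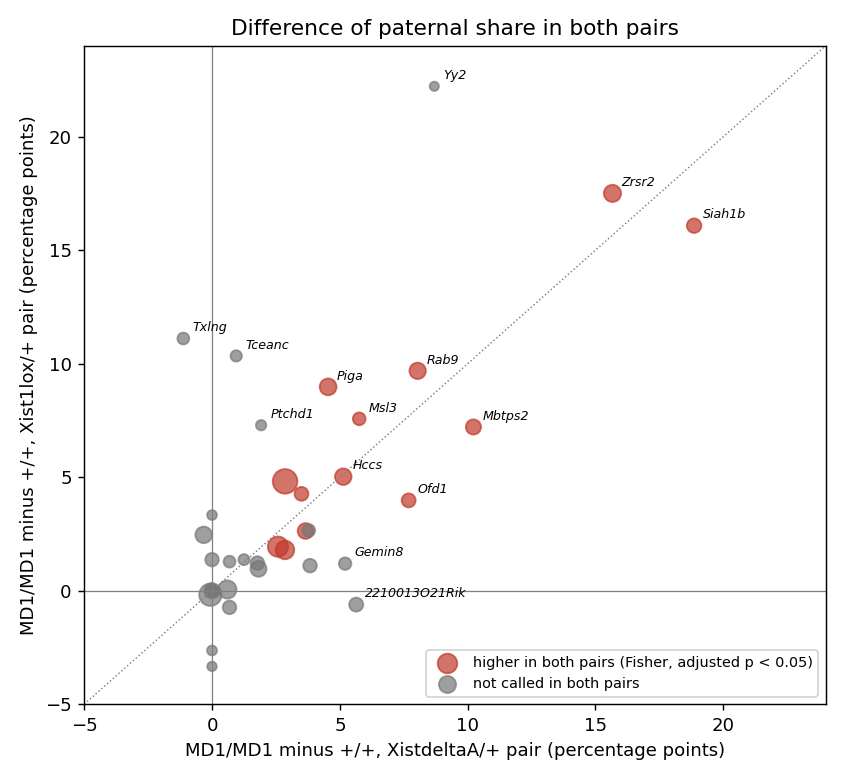
Difference of the paternal share, MD1/MD1 minus +/+ in percentage points, in the XistdeltaA/+ pair (horizontal) and the Xist1lox/+ pair (vertical) for the 37 genes, 1 library per genotype and pair. Red points are the 13 genes higher in both pairs, grey points the others, point size grows with the lowest read count and the dotted line marks equal differences. Siah1b and Zrsr2 lie far out near that line, while Yy2, Txlng and Tceanc lie above it on few reads.

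High and low shares lay side by side along the interval. Zrsr2 ends 18155 bases before Car5b in the order of the chromosome, and Car5b 42692 bases before Siah1b. A gene with no paternal read thus lies between the 2 with the largest mean differences. The 88 and 23 reads of Car5b in the MD1/MD1 libraries allow up to 3.41% and 13.0%. With Xist1lox/+ that limit lies within the interval of Siah1b, 12.4 to 20.4%. Ap1s2 lies 1776 bases from Zrsr2, tail to tail, and its MD1/MD1 shares were 3.78% and 2.65%, against 15.7% and 17.5% for Zrsr2. Ofd1 and Trappc2 start 120 bases apart on opposite strands. Trappc2 had no paternal read where Ofd1 had 7.69% and 3.98% in MD1/MD1, but its 34 and 49 reads there allow up to 8.82% and 6.12%. The step in the mean difference from 1 gene to the next was 3.18 points in the median of 36 steps. Position and difference had a Spearman correlation of -0.092 in the XistdeltaA/+ pair and 0.011 in the Xist1lox/+ pair over the 37 genes, as a description. By stretches of 5 Mb, 3 of 7 genes were called in both pairs from 150 to 155 Mb, 3 of 12 from 155 to 160 Mb, 5 of 16 from 160 to 165 Mb and 2 of 2 beyond. Over all X-linked genes compared 35.8% were called. The stretches hold few genes of unlike read depth, and no difference between them was tested. Only the stretch from 160 to 165 Mb held genes that reached 10% in both MD1/MD1 libraries.

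The genes whose human counterparts are described as escaping in Xp22 were set beside the others. All 14 on that list were measured, and 6 of them rose in both pairs, namely Eif1ax, Rbbp7, Zrsr2, Ofd1, Rab9 and Msl3. Of the other 23 genes 7 did so, beside 35.8% of all X-linked genes compared, and no difference between these sets was tested. The 14 genes had median shares of 2.88% in MD1/MD1 and 0.0253% in +/+ with XistdeltaA/+, and 4.42% in MD1/MD1 and 0% in +/+ with Xist1lox/+. The other 23 had medians of 2.95% in MD1/MD1 and 0% in +/+, then 1.65% in MD1/MD1 and 0% in +/+. In +/+ the highest share of the 14 was 5.47%, for Gemin8 with Xist1lox/+. By contrast the 11 measured genes of the mouse escape list had medians of 33.4% in MD1/MD1 and 22.5% in +/+ with XistdeltaA/+, and 30.7% in MD1/MD1 and 14.9% in +/+ with Xist1lox/+. Car5b was the 1 distal gene among these 11, which include Xist.

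Whether the difference between genotypes itself differed between both pairs was tested with Zelen's exact test of equal odds ratios (two-sided, Benjamini-Hochberg over 341 genes). It passed for 0 of 37 distal genes, beside 4.11% of the X-linked genes, and 0 distal genes had an unadjusted p under 0.05. For the 19 distal genes with no paternal read in either +/+ library the test has 1 possible outcome, so it could not pass. Such genes made up 35.2% of the X-linked genes, and the count of 0 thus rests on the other distal genes alone. Txlng and 2210013O21Rik passed in 1 pair and pointed the other way in the other pair, and had unadjusted p = 0.0805 and 0.0767 by Zelen's exact test. Txlng had 1 paternal read in the whole XistdeltaA/+ pair, and at its read totals the test could not give a lower p. The Xist alleles were then compared within each genotype, Xist1lox/+ against XistdeltaA/+. Within MD1/MD1 2 distal genes had a higher share with Xist1lox/+ by Fisher's exact test, Eif1ax (4.86% with Xist1lox/+ and 2.91% with XistdeltaA/+, adjusted p = 0.0202) and Txlng (11.1% with Xist1lox/+ and 0% with XistdeltaA/+, adjusted p = 0.00845), and 0 had a lower one. Over the X 3.81% of genes were higher and 1.17% lower in this comparison. Within +/+ 0 distal genes passed in either direction, beside 5.28% higher and 1.47% lower over the X.

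The paternal share was multiplied by the FPKM of each gene to give the FPKM attributed to each allele. Over the 37 genes the paternal FPKM summed to 29.1 in MD1/MD1 and 1.78 in +/+ with XistdeltaA/+, 16.4 times higher. With Xist1lox/+ it summed to 36.6 in MD1/MD1 and 1.89 in +/+, 19.4 times higher, and without Eif1ax the ratio was 12.4. The +/+ sums rest on 44 and 57 paternal reads. Pooled +/+ shares, 0.339% and 0.477%, were under the autosomal background of 0.866% and 0.688% in the same libraries, so both ratios are uncertain. The maternal FPKM summed to 647 in MD1/MD1 and 746 in +/+ with XistdeltaA/+ (0.867 times), and to 753 in MD1/MD1 and 743 in +/+ with Xist1lox/+ (1.01 times). The paternal alleles thus stood for a small part of the distal output in either genotype. For Zrsr2 the paternal FPKM was 2.64 and 3.03 in the MD1/MD1 libraries and 0 in both +/+ libraries. Its maternal FPKM was 14.2 in MD1/MD1 and 14.7 in +/+ with XistdeltaA/+, and 14.3 in MD1/MD1 and 14.0 in +/+ with Xist1lox/+. For Siah1b both parts were higher in MD1/MD1. Its paternal FPKM was 5.61 and 4.62 in MD1/MD1, and its maternal FPKM was 24.2 in MD1/MD1 and 18.2 in +/+, then 24.1 in MD1/MD1 and 21.9 in +/+.

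**Figure D3:**
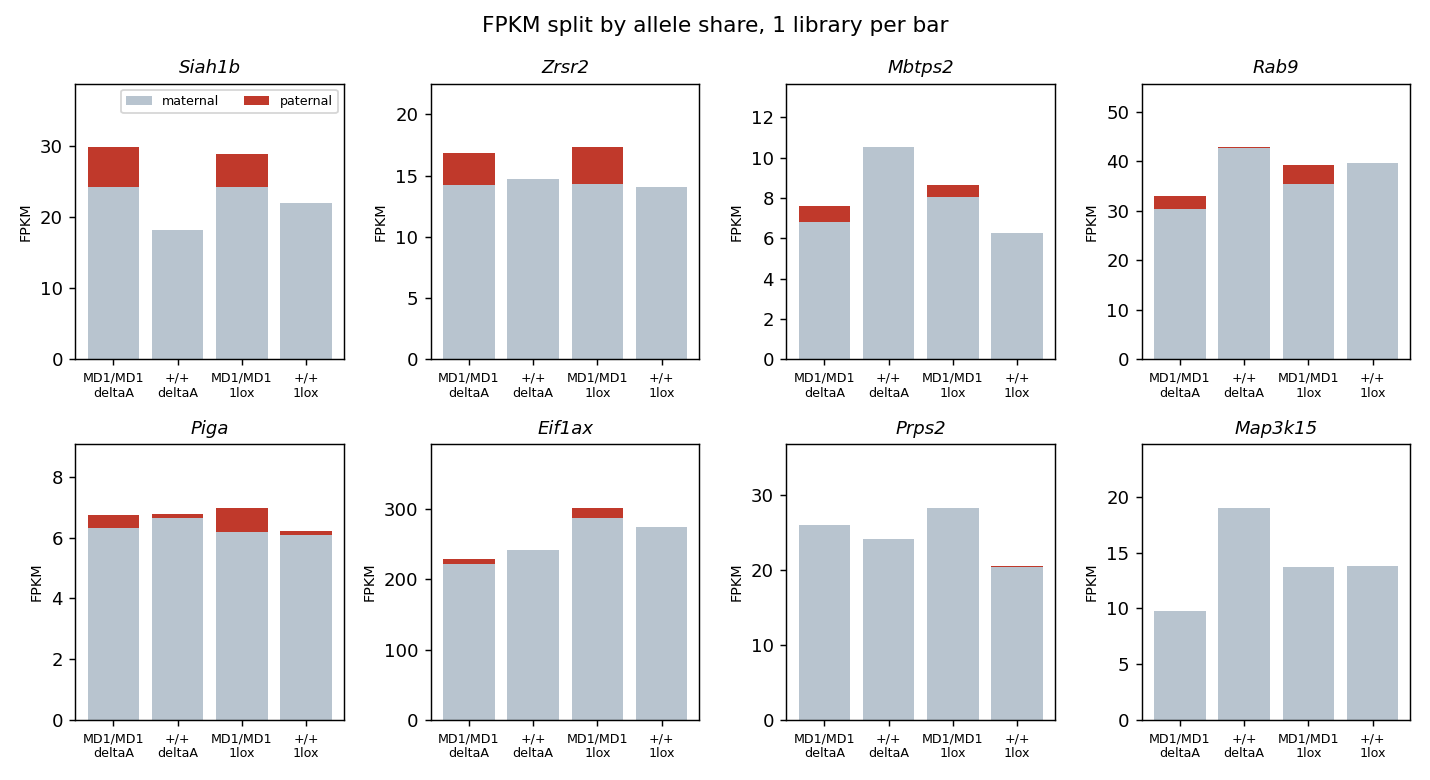
FPKM of 8 distal genes split into a maternal (grey) and a paternal (red) part by the share of allele-assigned reads, 1 bar per library in the order MD1/MD1 and +/+ with XistdeltaA/+, then MD1/MD1 and +/+ with Xist1lox/+. A red part is visible in both MD1/MD1 bars of Siah1b, Zrsr2, Mbtps2, Rab9, Piga and Eif1ax, and there is none in Map3k15. Each panel has its own vertical axis, which starts at 0.

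Total expression was compared as the log2 ratio of FPKM + 1, MD1/MD1 over +/+, without a test, for the 35 distal genes that reached a mean of 1 FPKM. Genes at least 2-fold higher in both pairs numbered 0 of 35, beside 0.131% of 11471 genes, and 0 were 2-fold lower, beside 0.113%. In the Xist1lox/+ pair alone 0 distal genes were 2-fold higher, beside 0.445%, and 0 lower, beside 0.375%. The median log2 ratio of the distal genes was -0.19 in the XistdeltaA/+ pair and 0.057 in the Xist1lox/+ pair. All 383 X-linked genes above the same limit had medians of -0.055 and 0.070, and 11088 autosomal genes of -0.047 and 0.0019. The ratio was above 0 for 8 of 35 genes in the XistdeltaA/+ pair and for 20 in the Xist1lox/+ pair. It was above 0 in both pairs for 5 genes, Txlng, Zrsr2, Siah1b, Figf and Prps2. Siah1b had the larger ratios of the 2 genes with the highest shares, 0.68 and 0.38, and Zrsr2 had 0.18 and 0.29. The 13 genes whose paternal share rose in both pairs had medians of -0.19 and 0.14, and the 21 others with a share had -0.23 and 0.0088.

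Levels of the distal genes ranged widely. Eif1ax was at 229 FPKM in MD1/MD1 and 242 in +/+ with XistdeltaA/+, and at 302 in MD1/MD1 and 274 in +/+ with Xist1lox/+. Rbbp7 was at 134, 163, 151 and 155 FPKM in the same order of libraries. At the low end Car5b was at 0.970, 0.738, 0.247 and 0.433 FPKM, and it was 1 of 3 genes with a mean under 1 FPKM. Tmsb4x, which encodes the actin-binding peptide thymosin beta 4 (163645026 to 163647150, minus strand), was the 1 distal gene at least 2-fold higher in the XistdeltaA/+ pair, as 3.91% of all genes were. It was at 389 FPKM in MD1/MD1 and 186 in +/+ with XistdeltaA/+, and at 208 in MD1/MD1 and 295 in +/+ with Xist1lox/+. The macrophage, fibroblast and trophoblast sums were likewise higher in MD1/MD1 in the XistdeltaA/+ pair, the last through Hand1 and Krt7. The part of other cell types in the Tmsb4x level was not tested. Tceanc was the 1 gene at least 2-fold lower in that pair, as 1.82% of all genes were, with 0.961 FPKM in MD1/MD1 and 3.42 in +/+, against 1.30 in MD1/MD1 and 0.937 in +/+ with Xist1lox/+. The +/+ XistdeltaA/+ library alone was high for Tceanc, and its allele-assigned reads were also highest there, at 208 against 63 to 87 in the other libraries.

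**Figure D4:**
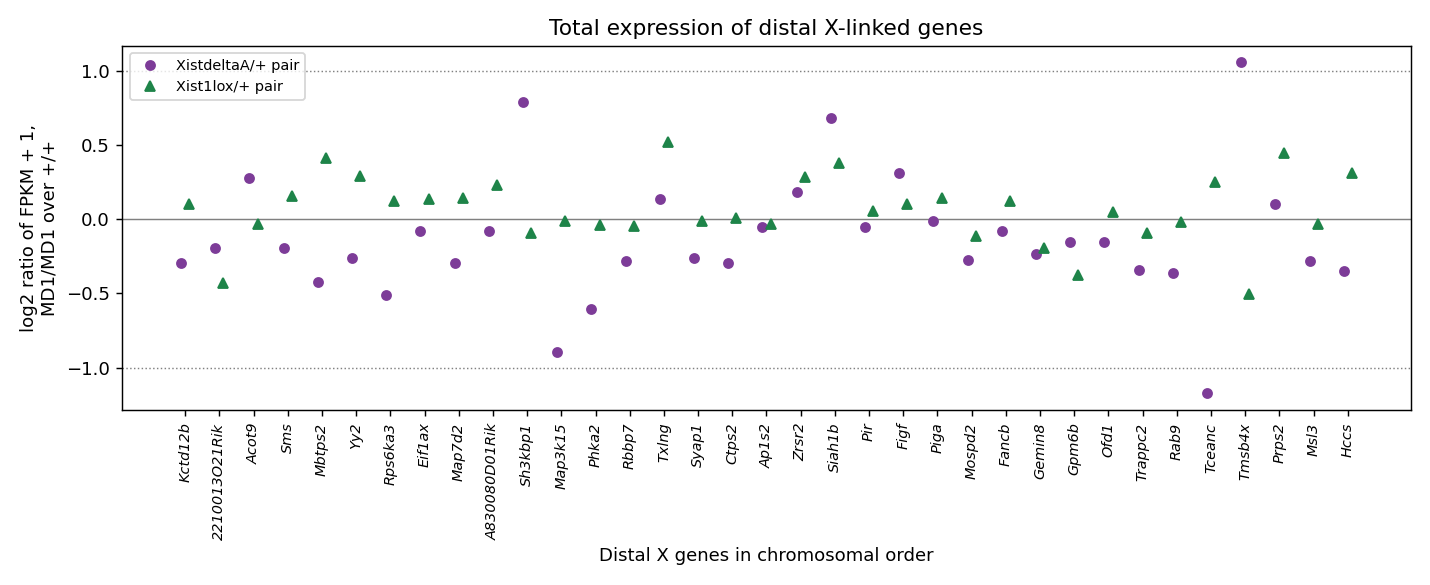
Log2 ratio of FPKM + 1, MD1/MD1 over +/+ (vertical axis), of the 35 distal genes that reached a mean of 1 FPKM, in chromosomal order, purple circles for the XistdeltaA/+ pair and green triangles for the Xist1lox/+ pair. Each point compares 2 single libraries, and dotted lines mark 2-fold. Most circles lie under 0 (median -0.19) and the triangles lie around 0 (median 0.057), with Tmsb4x and Tceanc past the lines in the XistdeltaA/+ pair.

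Genes on either side of the limits that chose the 38 are given as a description. Yy2, Car5b and Sh3kbp1 were just inside the limit of reads, with 21, 23 and 25 in their lowest library. Cnksr2, Reps2, Arhgap6 and Sat1 were just outside with 15, 11, 11 and 10. Cnksr2 had 1 of 16 paternal reads in MD1/MD1 and 0 of 21 in +/+ with XistdeltaA/+, and 0 of 15 in MD1/MD1 and 0 of 20 in +/+ with Xist1lox/+. Reps2 had no paternal read, of 17 in MD1/MD1 and 17 in +/+ with XistdeltaA/+ and of 12 in MD1/MD1 and 11 in +/+ with Xist1lox/+. Both genes had at most 21 reads in any library. Arhgap6 had 0 of 33 in MD1/MD1 and 1 of 20 in +/+ with XistdeltaA/+, and 0 of 19 in MD1/MD1 and 0 of 11 in +/+ with Xist1lox/+. Sat1 had 0 of 10 in MD1/MD1 and 0 of 125 in +/+ with XistdeltaA/+, and 3 of 144 in MD1/MD1 and 0 of 162 in +/+ with Xist1lox/+, so that 1 library alone kept it out. Kctd12b (150119697 to 150130823) was the first gene inside the start limit, with shares of 5.30% in MD1/MD1 and 1.46% in +/+ with XistdeltaA/+, and 1.62% and 0.515% with Xist1lox/+. Ubqln2 (149932775 to 149936101) was the nearest measured gene outside it, with 4.99% in MD1/MD1 and 0.235% in +/+ with XistdeltaA/+, and 6.59% and 0.0915% with Xist1lox/+.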

How the data were processed

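Stranded mRNA libraries of female EpiSCs were made from total RNA, per the labels' protocols. Build mm9, Cufflinks 2.2.1 and Cuffdiff stand in the submitters' processing notes, while the sources used here name neither an aligner nor the strain variants. The authors deposited, per gene and library, a count of allele-assigned reads, the paternal fraction of them, and FPKM, per the file headers. Fraction times count gave whole paternal reads for 100% of values within 1e-06. Left unused were 6 columns whose names match none of the samples. Starts are counted from 0, since the length without a base added was a multiple of 3 for 83.3% of 1117 olfactory receptor genes, against 7.97% with 1 added. Coordinates are printed counted from 1, in mm9.

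Read tests, exact intervals and limits for a count of 0 (3 reads) were computed with scipy 1.17.1 over the whole X, at a minimum of 20 reads in all 4 libraries. Intervals cover counting error only, with reads taken as independent. The tests were checked on simulated reads. No count model with terms for Smchd1 and Xist was fitted; reads were compared library by library. FPKM ratios use a pseudocount of 1 and understate low genes.

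Paternal reads or shares in every library were printed for genes at 10% paternal or more in any library, the 8 largest mean differences of share, genes lower in both pairs, genes past 2-fold in FPKM in both pairs, genes whose pairs differ, the 4 with most reads and those next to the limits. Other genes given in full were chosen after their values were seen. The genes and lists were chosen with earlier results of these data known. Alternatives were other read minimums, thresholds, adjustments, weights, pseudocounts and scalings.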

Additional observations from a re-analysis of the deposited data

Results flagged for a closer look

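The median log2 FPKM ratio of the distal genes, MD1/MD1 over +/+, was -0.19 in the XistdeltaA/+ pair and 0.057 in the Xist1lox/+ pair, so that the pairs pointed in opposite directions. Tmsb4x had log2 ratios of 1.06 and -0.50 in the same order of pairs, and Tceanc of -1.17 and 0.25. With 1 library per combined genotype these differences between pairs were not tested.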

How the results depend on the processing

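The count of 13 genes with a higher paternal share in both pairs was 13 at a minimum of 10, 50 or 100 reads and with adjustment over all genes of the table, and 11 at an adjusted p under 0.01. With a difference of at least 5 points required as well it was 6. The count of genes lower in both pairs was 0 in each of these settings. Genes at the threshold in both MD1/MD1 and neither +/+ library numbered 8 at 5% and 0 at 20%, against 2 at 10% with a minimum of 20 or 50 reads. As a median over genes the share was 2.91% in MD1/MD1 and 0% in +/+ with XistdeltaA/+ and 2.65% in MD1/MD1 and 0% in +/+ with Xist1lox/+, so that the differences were 2.91 and 2.65 points. Without Zrsr2, which had the most paternal reads, the MD1/MD1 shares were 3.49% and 3.88% and the differences 3.14 and 3.38 points. The mean with equal weight was 0.623% in +/+ Xist1lox/+. Without Eif1ax the ratio of paternal FPKM in the Xist1lox/+ pair was 12.4. The cause of these shifts was not tested beyond the genes left out. Of single genes, calls were lost at an adjusted p under 0.01 for 7 comparisons, among them Rps6ka3 and Msl3 in both pairs, and the call of Ap1s2 was lost with adjustment over all genes. Counts of genes past 2-fold in FPKM in both pairs were 0 at 1.5-fold, with a pseudocount of 0.1 and without a filter on low FPKM. Each combined genotype had 1 library and the labels give no replicate numbers, so that no replicate block was used and no replicate could be left out. Pairs were matched on the Xist allele alone. Of the 12 genes with fewer than 100 reads in some library 0 were called in both pairs, and whether depth accounts for this was not tested.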
